A study of Mus musculus with 14 samples.

Results

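Immediate early genes and heat shock genes were followed through 14 RNA-seq libraries of mouse regulatory T cells (Tregs) as a set of 39 named genes. The genes were listed by symbol, with no threshold on their values, and they make up 39 of the 48363 genes with values in the deposited table. All 39 had at least 10 normalized counts in at least 2 libraries, so all 39 were among the 16241 genes tested. They were divided by role into 7 AP-1 and ATF factors, 5 EGR and KLF factors, 3 NR4A receptors, 4 immediate early regulators, 3 dual specificity phosphatases, 5 feedback and stress regulators, 3 genes of the RGS and CD69 group and 9 heat shock genes.

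Immediate early genes are transcribed from pre-assembled factors (SRF, CREB and NF-kappaB) within minutes of a stimulus such as antigen receptor engagement, without new protein synthesis, and many of their mRNAs are short lived. Heat shock genes are turned on by HSF1 when unfolded protein draws chaperones away from it, and their products fold or protect other proteins. In Tregs, NR4A, EGR and AP-1 transcripts are known as readouts of T cell receptor signaling, and both families are also known to be induced when tissue is dissociated and cells are sorted.

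The libraries fall into 4 groups of FOXP3-YFP+ CD4+ cells, sorted live and untreated from the pooled spleen and inguinal, axillary and brachial lymph nodes of each biological replicate. cKO Tregs (5 libraries) are Foxp3 Cre cells with both miR-15/16 clusters floxed (fl/fl), and WT Tregs (4 libraries) are Foxp3 Cre cells with the wt/wt alleles. CD25hi Tregs (3 libraries) and CD25lo Tregs (2 libraries) were sorted from mice with the WT genotype by their surface CD25, the interleukin 2 receptor chain encoded by Il2ra. All 4 groups carry the Foxp3 knock-in that drives YFP and Cre, so the deletion begins only once Foxp3 is expressed. The cKO against WT comparison addresses the loss of the miRNAs, with sex unbalanced between the groups as given below. CD25lo against CD25hi addresses the state of Tregs with little CD25. WT against the CD25-sorted libraries addresses how far these genes moved between sorts of 1 genotype.

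Libraries held 30055573 to 35226685 reads in genes, and counting error is small beside the spread between libraries for all members but Ier3. Values are normalized counts, that is reads divided by a size factor per library, and are given in replicate order. All 7 Treg markers were detected in all groups. Their summed level was 171816 to 196962 normalized counts in the cKO, WT and CD25hi libraries and 142282 to 142519 in CD25lo. Single Treg markers differed beneath these sums. In cKO against WT Tregs, limma called Il2ra lower (log2 fold change -0.75, adjusted p = 1.5e-05) and Ikzf2 higher (0.25, adjusted p = 0.0205). In WT over CD25-sorted Tregs it called Ctla4 (1.236, adjusted p = 0.0170), Ikzf2 (adjusted p = 0.0453) and Tnfrsf18 (adjusted p = 0.0391) higher. It called Il2ra, Foxp3, Tnfrsf18 and Ikzf2 lower in CD25lo than in CD25hi Tregs (adjusted p at most 0.0377). The summed level of 12 myeloid markers was 1955, 1313, 1906, 5730 and 2720 in the cKO libraries, 9634, 4897, 6869 and 1774 in the WT libraries, 1400 to 2106 in CD25hi and 1914 to 2189 in CD25lo, where Spi1 and Cd14 were at 0 in all 5 CD25-sorted libraries. Of these 12, Cd68 was called, higher in WT than in CD25-sorted Tregs (log2 fold change 1.72, adjusted p = 0.0367). The summed B cell markers lay at 19539 to 25708 in cKO, 14846 to 20097 in WT and 13521 to 14830 in the CD25-sorted libraries. Of the B cell markers, limma called Ighm higher in cKO than in WT Tregs (log2 fold change 0.39, adjusted p = 0.0240). Xist and Ddx3y placed all 5 cKO libraries and WT replicate 3 as female and the other 8 as male, and the labels give no date of sort or sequencing. Genotype and sex thus run together in cKO against WT but for WT replicate 3, and their parts in that comparison cannot be told apart.

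The members followed the groups of the labels only in part. WT replicates 1, 2 and 3 were high, WT replicate 4 was low, cKO replicates 4 and 5 were above cKO replicates 1, 2 and 3, and the 5 CD25-sorted libraries were low. On the log2(normalized count + 1) scale, the median member stood 0.90, 0.85 and 0.85 above its own 14-library median in WT replicates 1, 2 and 3, and at -0.47 in WT replicate 4. It stood at -0.03, -0.05, 0.11, 0.67 and 0.84 in the cKO libraries, at -0.49, -0.66 and -0.59 in CD25hi and at -0.59 and -0.57 in CD25lo. WT replicate 4 stood nearer to the CD25-sorted libraries than to the other 3 libraries of its own group. These orders of libraries were noticed in the values, and so are given as descriptions with the share of all 16241 genes beside each.

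**Figure D1:**
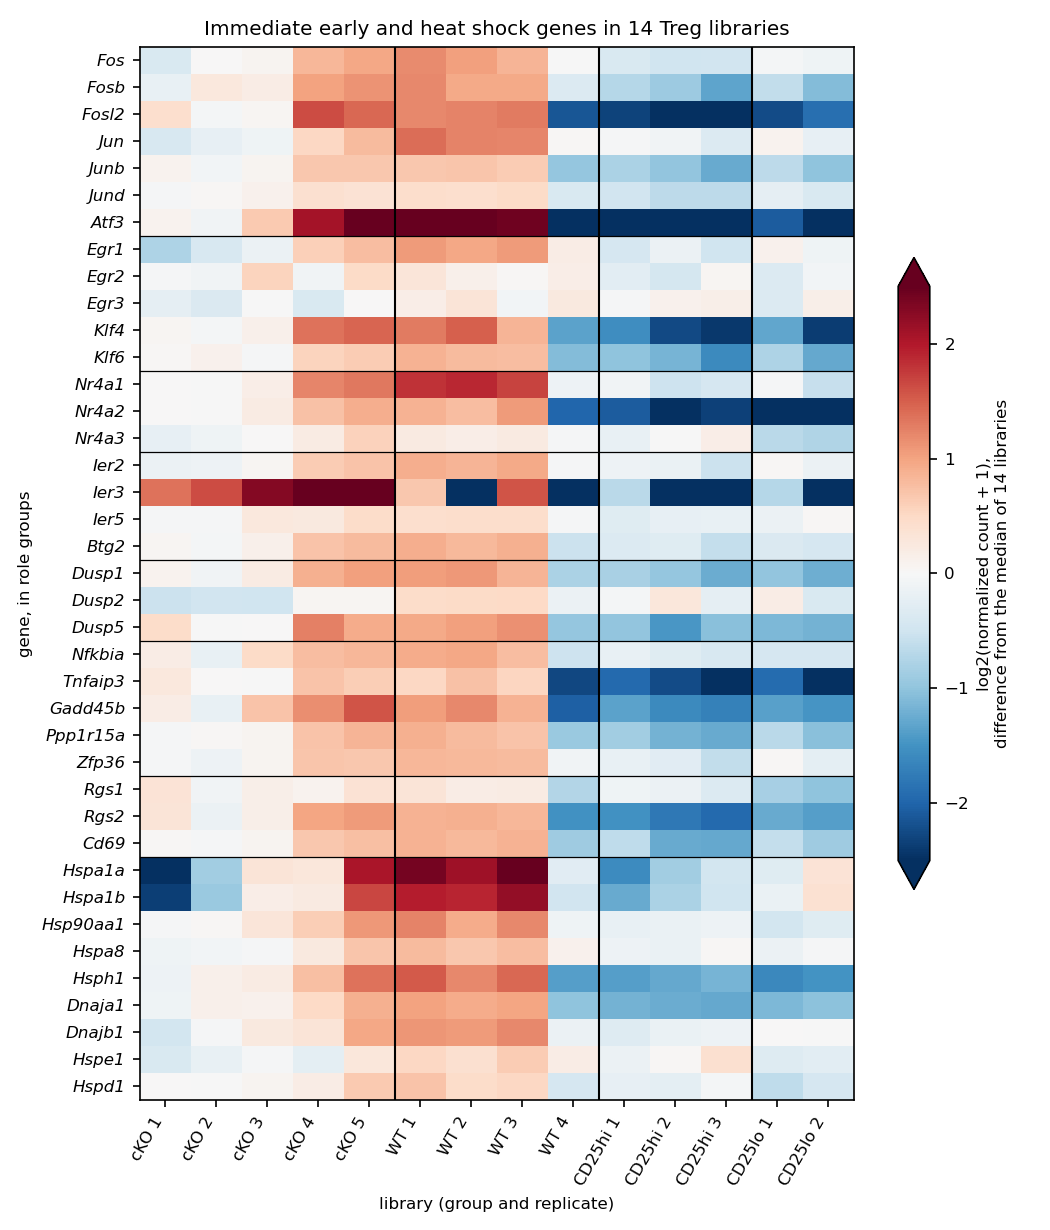
Heat map of the 39 genes (rows, grouped by role) in 14 libraries (columns, grouped as labelled), coloured by log2(normalized count + 1) minus the gene's median over the 14 libraries and clipped at the ends of the colour scale. WT replicates 1 to 3 and cKO replicates 4 and 5 are high in most rows, and WT replicate 4 is low in most rows.

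WT replicate 4 was the lowest of the 4 WT libraries for 36 of 39 members, against 26.2% of all genes, and the exceptions were Egr2, Egr3 and Ier3. All of WT replicates 1 to 3 lay above WT replicate 4 and above each CD25-sorted library for 35 members, against 5.5% of all genes. cKO replicates 4 and 5 were the highest pair of the cKO libraries for 33 members, against 16.1% of all genes. All 5 cKO libraries lay above all 5 CD25-sorted libraries for 23 members (6.79% of all genes) and below WT replicates 1 to 3 for 15 members (6.18% of all genes).

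The spread within a group was wide. The median member had an SD of 0.70 on the log2 scale among the WT libraries and 0.42 among the cKO libraries, against 0.145 and 0.107 for the median of the 5830 genes with a mean over 1000 normalized counts, a set that holds 37 of the members. Among CD25hi and CD25lo libraries the median member had an SD of 0.21 and 0.17, against 0.125 and 0.0993. By role group, the heat shock genes stood at a median of 1.11, 0.93, 1.19 and -0.29 in the WT libraries and at -0.13, -0.03, 0.16, 0.29 and 0.96 in the cKO libraries. cKO replicate 4 was thus nearer to cKO replicate 3 than to cKO replicate 5 for the heat shock genes, while for the median of all members it was nearer to replicate 5. Libraries with many myeloid marker counts (WT replicates 1 to 3 and cKO replicate 4) were among those with high members, as was cKO replicate 5 with 2720, and the part of myeloid cells in these levels was not tested. In bulk RNA, fewer cells of a type cannot be told apart from less RNA per cell.

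**Figure D2:**
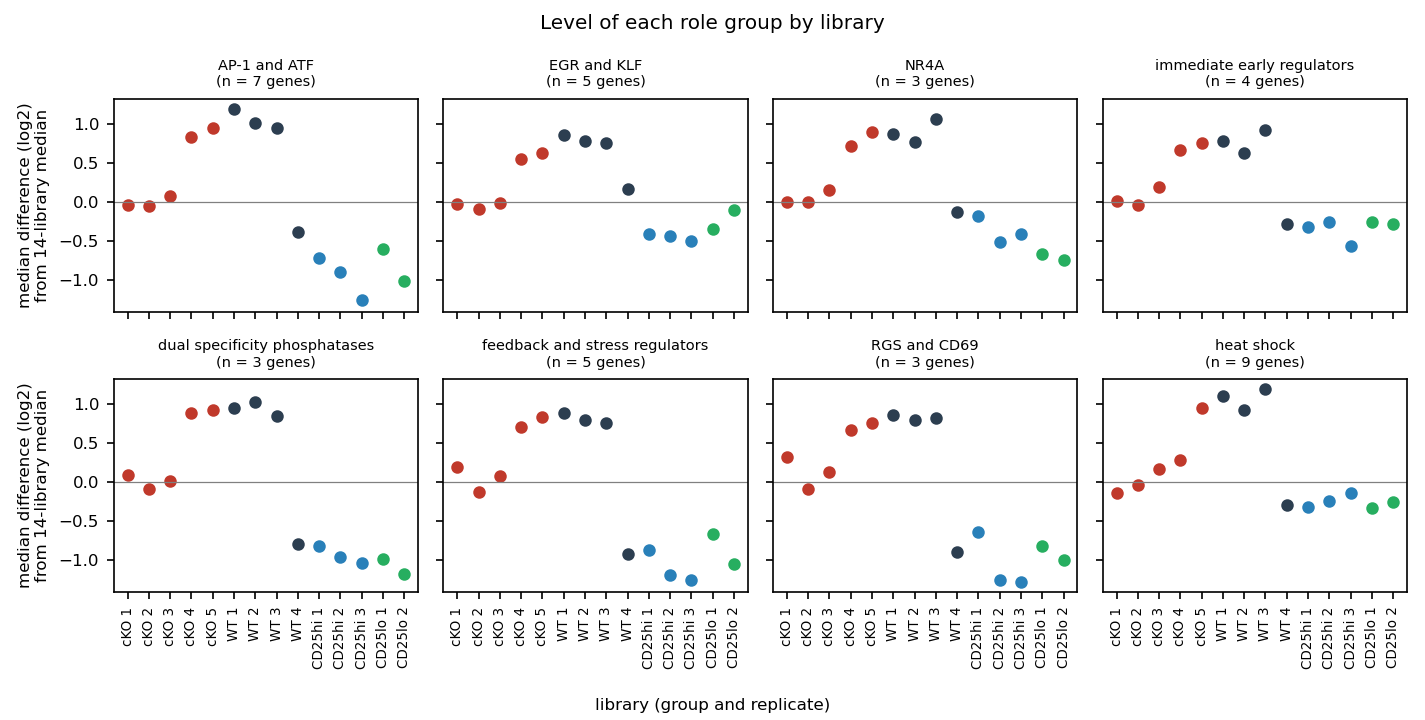
Median difference of each of 8 role groups from the 14-library median (log2 scale, vertical axis) in each library (horizontal axis), with points coloured by group. In the panel of heat shock genes the WT libraries lie at 1.11, 0.93, 1.19 and -0.29 and the CD25-sorted libraries all lie below 0.

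In cKO against WT Tregs, limma with Benjamini-Hochberg adjustment over all genes called 2 of the 39 members lower and 0 higher. Across all genes 1.48% were called lower and 2.04% higher. The members called were Dusp2 and Hspe1. At an unadjusted p under 0.05, 11 members were lower (6.56% of all genes) and 1 was higher (9.57% of all genes). No member had groups that did not overlap (4.92% of all genes higher and 3.62% lower). Log2 fold changes were negative for 28 members and positive for 11, with a median of -0.13 beside 0.05 over all genes, and all 9 heat shock genes were negative (median -0.45).

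The comparison turned on WT replicate 4. This library was singled out after its low values for these same members were seen, and leaving it out raises the WT means. The folds and p-values without it, here and for single genes below, therefore describe this dependence and are no separate evidence of a fall. Without it, 13 members were called lower (1.71% of all genes) and 0 higher (1.88% of all genes), 37 of 39 log2 fold changes were negative and 9 members changed sign, with a median of -0.55 beside 0.04 over all genes. The 13 were Jun, Egr1, Nr4a1, Ier2, Dusp2 and 8 of the 9 heat shock genes, all but Hspd1, and Egr2 and Ier3 were the members that stayed positive. Without cKO replicate 5, 7 members were called lower, and without cKO replicate 1 or 2 or WT replicate 1 or 3 the count was 0. Over all genes, 198 were called lower without cKO replicate 5, beside 240 with all libraries. The numbers were 146 and 202 without cKO replicates 1 and 2, and 177 and 172 without WT replicates 1 and 3. A term for sex brought the count of members to 0 as well, and this term rests on WT replicate 3, the 1 female library among the WT libraries. With the term, 13 genes were called higher and 9 lower over all genes, beside 332 and 240 without it.

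**Figure D3:**
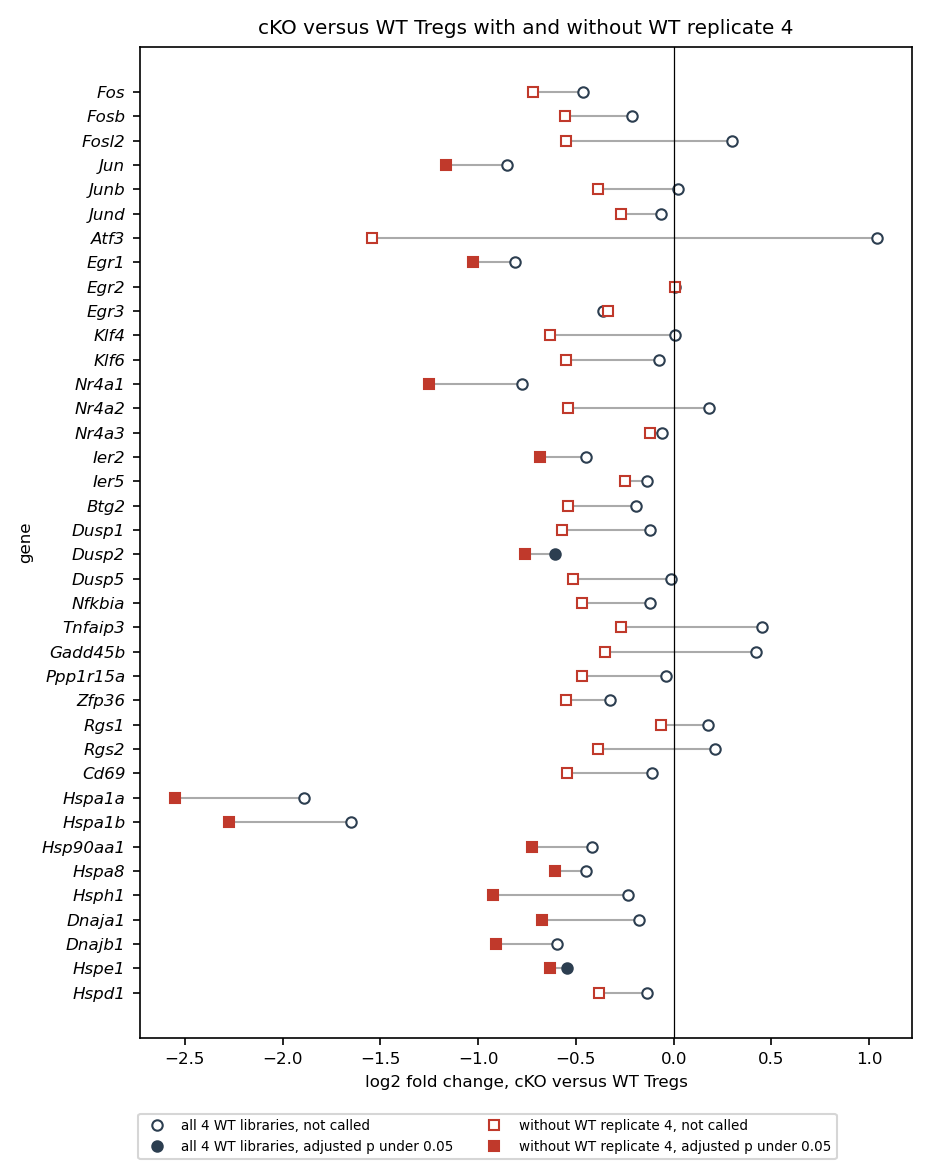
Log2 fold change of cKO against WT Tregs for 38 genes with all 4 WT libraries and without WT replicate 4; Ier3, with few reads, is left out. Leaving out this library moves the genes toward negative values, and the median of the 39 genes goes from -0.13 to -0.55.

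In WT against CD25-sorted Tregs, both of WT genotype, all 39 members had a positive log2 fold change, with a median of 1.17 beside 0.0132 over all genes. limma called 24 of 39 higher and 0 lower, where 1.2% of all genes were called higher and 0.308% lower. At an unadjusted p under 0.05, 37 were higher (9.25% of all genes) and 0 lower (6.72%), and 9 members had WT libraries that all lay above the CD25-sorted ones (1.53% of all genes) and 0 below (1.25%). By role, the calls took in 6 of 7 AP-1 and ATF factors, 2 of 5 EGR and KLF factors, 3 of 3 NR4A receptors, 2 of 4 immediate early regulators, 2 of 3 dual specificity phosphatases, 3 of 5 feedback and stress regulators, 2 of 3 in the RGS and CD69 group and 4 of 9 heat shock genes. These calls rest on few libraries. Without WT replicate 4, 36 members were called higher (4.16% of all genes) and 0 lower (1.9%). The count was 0 without any 1 of WT replicates 1, 2 or 3 or without CD25lo replicate 2, 9 without CD25hi replicate 2 and 10 without CD25lo replicate 1, and 0 when the cKO libraries were left out of the fit. Calls over all genes fell in the same fits. Beside 195 genes called higher with all libraries, there were 1, 3 and 5 without WT replicates 1, 2 and 3. There was 1 without CD25lo replicate 2, 85 without CD25hi replicate 2, 148 without CD25lo replicate 1 and 0 without the cKO libraries. WT libraries also serve in the cKO comparison, so the 2 comparisons are not independent.

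In CD25lo against CD25hi Tregs, limma called 1 member lower, the orphan receptor gene Nr4a3, and 0 higher, where 1.01% of all genes were called lower and 0.61% higher. At an unadjusted p under 0.05, 3 members were lower (6.95% of all genes) and 0 higher (6.51%). The 2 CD25lo libraries lay above all 3 CD25hi libraries for 10 members (12.9% of all genes) and below them for 7 (11.6% of all genes). The 10 were Fos, Fosl2, Jund, Egr1, Ier5, Rgs2, Hspa1a, Hspa1b, Dnaja1 and Dnajb1, and the 7 were Nr4a3, Nfkbia, Rgs1, Hsp90aa1, Hsph1, Hspe1 and Hspd1. Log2 fold changes were positive for 28 members and negative for 11 (median 0.14, beside 0 over all genes), and the heat shock genes split into 5 positive and 4 negative.

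**Figure D4:**
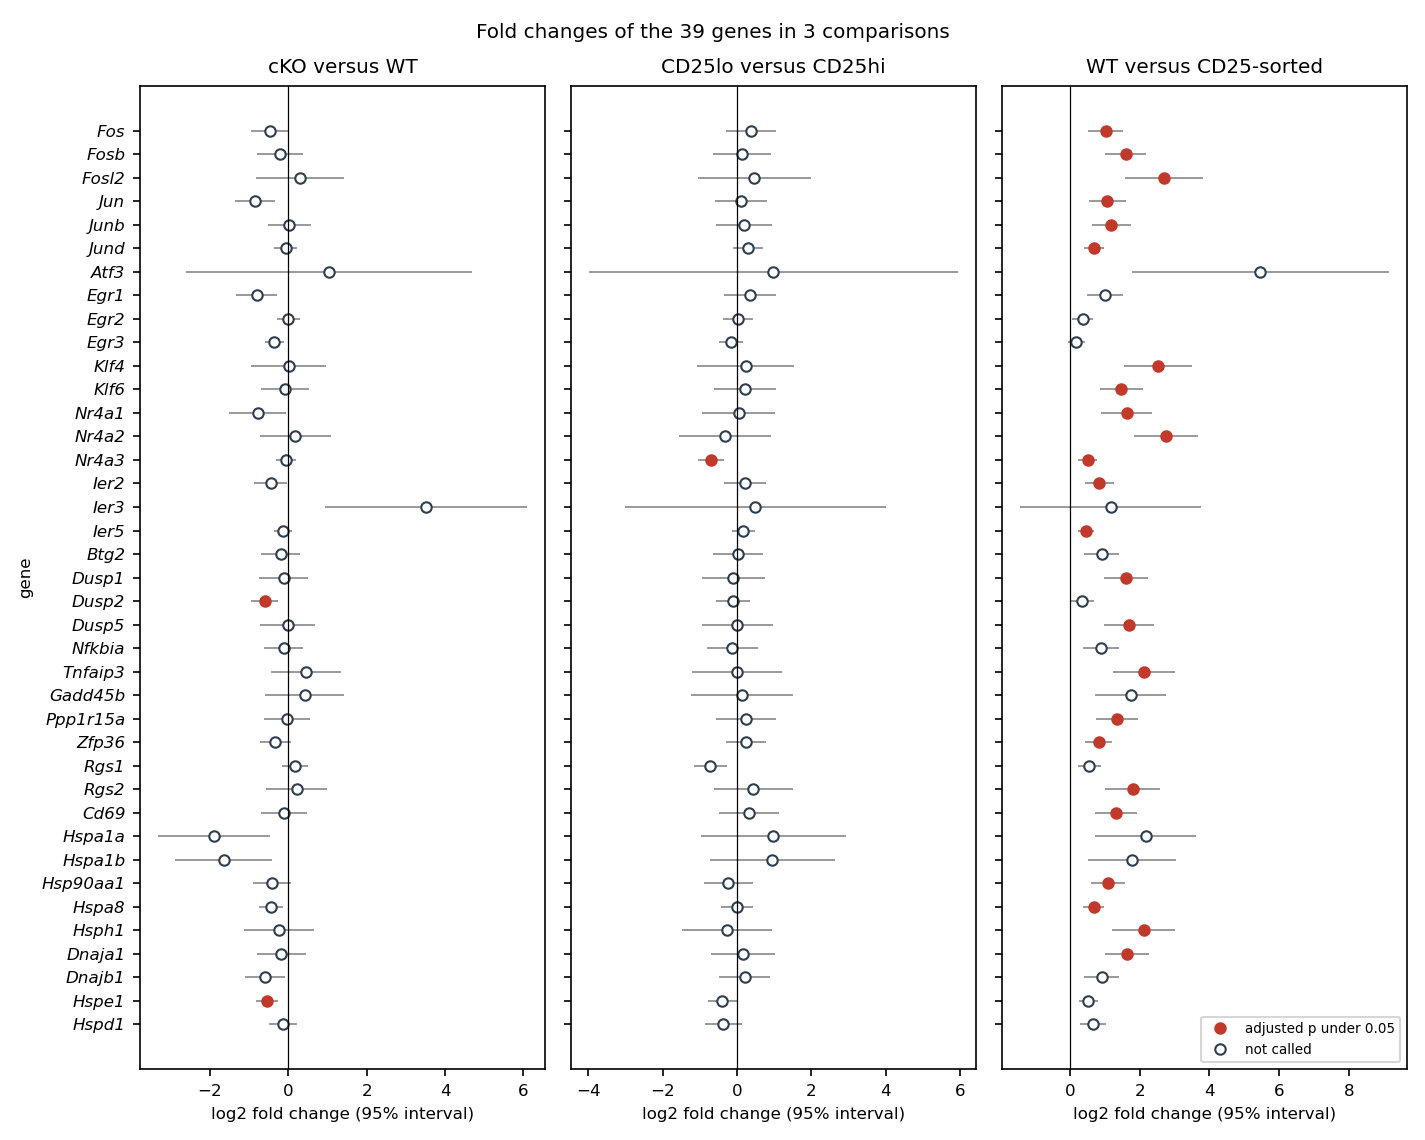
Log2 fold changes with 95% intervals for the 39 genes in 3 comparisons, cKO against WT, CD25lo against CD25hi and WT against CD25-sorted Tregs, with filled points for genes with an adjusted p under 0.05 in limma. All 39 points lie above 0 in WT against CD25-sorted Tregs and 24 are filled, against 2 and 1 filled points in the other comparisons.

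Promoters of 32 of the 39 genes were found in RefSeq (GRCm38.p6), and those missing are Egr1, Egr3, Hsp90aa1, Rgs1, Hspa8, Cd69 and Ier2. Motifs were searched on both strands from 250 bases before to 50 after each start, and a match is a description of these letters and no sign of binding. A heat shock element of 2 units, GAANNTTC or TTCNNGAA, stood in 6 of the 7 heat shock promoters found, against 17.0% of the 27025 promoters of all genes. The form with 3 units, GAANNTTCNNGAA or TTCNNGAANNTTC, which contains the first, stood in 3 of 7 (Hspd1, Hspe1 and Hsph1), against 0.662%. The Hspa1a and Hspa1b promoters are shown because these genes had the widest range of the heat shock group, and they are identical at 247 of 250 bases. Capitals mark the heat shock element of 2 units, whose first base lies 104 bases before the start in both. They lie at chr17:34972157-34972406 and chr17:34959239-34959488, both on the minus strand of GRCm38.p6.
Hspa1a: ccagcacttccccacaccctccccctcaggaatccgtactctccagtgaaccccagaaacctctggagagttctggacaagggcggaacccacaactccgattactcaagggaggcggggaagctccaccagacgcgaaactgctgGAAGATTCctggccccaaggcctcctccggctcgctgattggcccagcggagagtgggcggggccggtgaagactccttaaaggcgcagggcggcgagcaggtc
Hspa1b: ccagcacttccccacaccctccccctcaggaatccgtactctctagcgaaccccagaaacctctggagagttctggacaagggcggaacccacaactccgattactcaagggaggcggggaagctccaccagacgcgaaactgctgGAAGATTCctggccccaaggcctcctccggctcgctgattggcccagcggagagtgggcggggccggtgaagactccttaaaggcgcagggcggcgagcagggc

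Among the immediate early promoters, the full cyclic AMP response element (CRE) TGACGTCA stood in 3 of the 25 found, against 2.03% of all promoters, and its core TGACG, which the full element contains, in 16 of 25, against 23.0%. In the 7 heat shock promoters the full element stood in 0 and the core in 4. The 3 with the full element, Btg2, Dusp1 and Ppp1r15a, are shown with it in capitals. It begins 166, 143 and 12 bases before the RefSeq start. Btg2 lies at chr1:134079156-134079405, Dusp1 at chr17:26508520-26508722 and Ppp1r15a at chr7:45526269-45526518, all on the minus strand, and only bases before the first annotated start are printed.
Btg2: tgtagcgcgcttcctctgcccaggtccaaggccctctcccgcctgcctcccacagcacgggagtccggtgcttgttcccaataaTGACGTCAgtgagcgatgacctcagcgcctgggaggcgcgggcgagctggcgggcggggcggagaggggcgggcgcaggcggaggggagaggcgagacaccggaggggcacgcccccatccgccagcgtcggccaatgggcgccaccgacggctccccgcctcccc
Dusp1: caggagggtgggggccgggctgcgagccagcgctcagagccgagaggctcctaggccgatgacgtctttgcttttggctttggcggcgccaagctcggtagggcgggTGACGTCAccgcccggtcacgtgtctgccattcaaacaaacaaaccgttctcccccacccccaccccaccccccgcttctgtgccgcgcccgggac
Ppp1r15a: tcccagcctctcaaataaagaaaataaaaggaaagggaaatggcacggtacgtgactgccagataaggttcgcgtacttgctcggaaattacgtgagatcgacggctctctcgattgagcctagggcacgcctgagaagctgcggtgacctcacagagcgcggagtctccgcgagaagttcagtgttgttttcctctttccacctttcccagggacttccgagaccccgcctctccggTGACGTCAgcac

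The CArG box bound by SRF stood in 3 of the 25 immediate early promoters (Dusp5, Egr2 and Zfp36), against 1.81% of all promoters, and the kappa B site in 7 of 25, against 5.14%. Neither was matched in the 7 heat shock promoters. Dusp5 (chr19:53528895-53529108, plus strand) is shown for its pair of adjoining CArG boxes, which begin at positions -82 and -72 from the start, and Nfkbia (chr12:55492648-55492897, minus strand) for a kappa B site 29 bases before the start, both in capitals. The EGR site GCGGGGGCG or GCGTGGGCG stood in 7 of the 32 promoters of both kinds (3.93% of all promoters), the AP-1 site TGACTCA or its complement TGAGTCA in 1 (5.95%), and TATAA on the strand of the gene in 9 (5412 of the 27025 promoters).
Dusp5: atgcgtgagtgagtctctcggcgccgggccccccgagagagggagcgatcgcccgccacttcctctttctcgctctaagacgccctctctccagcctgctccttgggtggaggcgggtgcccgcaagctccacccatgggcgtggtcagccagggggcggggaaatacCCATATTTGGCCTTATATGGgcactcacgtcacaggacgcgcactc
Nfkbia: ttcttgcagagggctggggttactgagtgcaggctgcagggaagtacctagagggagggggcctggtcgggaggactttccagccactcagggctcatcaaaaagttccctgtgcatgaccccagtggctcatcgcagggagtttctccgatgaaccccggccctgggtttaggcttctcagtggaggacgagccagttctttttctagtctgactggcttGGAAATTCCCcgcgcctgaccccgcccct

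The AP-1 factors pair a FOS protein with a JUN protein on DNA. Junb, the AP-1 subunit with the most reads for its length, was at 69075 normalized counts per kb of exon in WT Tregs and Fos at 36827. Fos was at 33541, 43771, 46034, 78174 and 84957 in the cKO libraries and 99422, 88485, 78881 and 43738 in the WT libraries. The same gene was at 33736, 30817 and 31568 in the CD25hi libraries and 42355 and 40572 in the CD25lo libraries. The WT and cKO libraries overlapped, and the 4 WT libraries lay above all CD25-sorted ones. Fos rose in WT over CD25-sorted Tregs by a log2 fold change of 1.03 (SE 0.24, adjusted p = 0.0367), and its value was -0.47 (SE 0.24, adjusted p = 0.347) in cKO against WT.

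Fosl2, which encodes FRA2, had the widest range of the AP-1 genes after Atf3. It was at 2226, 1614, 1731, 5160.0 and 4525 in the cKO libraries and 3852, 3955, 4098 and 377 in the WT libraries. CD25-sorted libraries were at 337, 269.9 and 267 (CD25hi) and 355 and 449 (CD25lo). WT replicate 4 sat among the CD25-sorted libraries, and all 5 cKO libraries were above it. Fosl2 rose in WT over CD25-sorted Tregs (log2 fold change 2.69, SE 0.54, adjusted p = 0.0240), the log2 fold change in cKO against WT was 0.30 (adjusted p = 0.848) and without WT replicate 4 it was -0.55 (adjusted p = 0.357).

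Fosb, a FOS family subunit, was at 24025, 32589.8, 30989.6, 55162 and 59160.1 in the cKO libraries and 62771, 52534, 52886 and 21651 in the WT libraries, and at 16544, 14614 and 10938 in the CD25hi libraries and 17922 and 12872 in the CD25lo libraries. All 4 WT libraries exceeded the CD25-sorted ones and Fosb rose there (log2 fold change 1.60, SE 0.28, adjusted p = 0.0170), with -0.21 (adjusted p = 0.775) in cKO against WT. Atf3, a stress-induced factor of the ATF family, had the widest range of all members. It was at 211, 186, 314, 838 and 1618 in the cKO libraries and 1381, 1446, 1076 and 0 in the WT libraries, and at 0.900, 0 and 21.3 in the CD25hi libraries and 46.4 and 0 in the CD25lo libraries. WT replicates 1 to 3 were high and WT replicate 4 was at 0, so no fold is given, and neither comparison was called for Atf3 (adjusted p = 0.123 for WT against CD25-sorted Tregs and 0.833 for cKO against WT).

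WT replicate 4 was the lowest WT library for all 3 JUN subunits. Jun ranged over 21605 to 49492 in cKO, 29045 to 75117 in WT, 22514 to 28148 in CD25hi and 24948 to 30291 in CD25lo Tregs, Junb over 89861 to 150484 in cKO, 48541 to 152207 in WT, 39396 to 54726 in CD25hi and 46803 to 60439.5 in CD25lo Tregs, and Jund over 28617 to 38776 in cKO, 22495 to 40688 in WT, 18568 to 20934 in CD25hi and 22372 to 25156 in CD25lo Tregs. All 3 rose in WT over CD25-sorted Tregs, by 1.08 (adjusted p = 0.0359), 1.18 (adjusted p = 0.0323) and 0.69 (adjusted p = 0.0240) on the log2 scale. Jun was the member with the most negative fold among the AP-1 factors in cKO against WT, at -0.85 (SE 0.24, adjusted p = 0.0642), and fell without WT replicate 4, to -1.17 (adjusted p = 0.00193). Junb and Jund had 0.02 (adjusted p = 0.982) and -0.06 (adjusted p = 0.883) in that comparison.

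Among the EGR and KLF zinc finger factors, EGR1 to EGR3 act downstream of MAP kinase and NFAT signals, and KLF4 and KLF6 restrain cell growth in several cell types. Klf4 was at 2807, 2605, 2951, 6890.4 and 7373 in the cKO libraries and 6674, 7594, 4882 and 1073 in the WT libraries. CD25-sorted libraries were at 921, 568 and 504 (CD25hi) and 1100.2 and 522 (CD25lo). WT replicate 4 again sat with the CD25-sorted libraries. Klf4 rose in WT over CD25-sorted Tregs (log2 fold change 2.53, SE 0.46, adjusted p = 0.0203), as did Klf6 (1.47, adjusted p = 0.0240), which ranged over 38065 to 60116 in cKO, 18279 to 70728 in WT, 12952 to 19315 in CD25hi and 15929 to 22837 in CD25lo Tregs.

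The 3 EGR genes parted from each other. Egr1 ranged over 6113 to 17645 in cKO, 11779 to 21844 in WT, 7306 to 9394 in CD25hi and 9685 to 11141 in CD25lo Tregs, and its WT libraries lay above all CD25-sorted ones. Its log2 fold change there had a 95% interval of 0.48 to 1.52 and an adjusted p just over the threshold of 0.05, so it was not called. It was at -0.81 (SE 0.25, adjusted p = 0.0812) in cKO against WT, where it fell without WT replicate 4, to -1.02 (adjusted p = 0.0201). Egr2 and Egr3 had narrower ranges over the 14 libraries (0.99 and 0.70 on the log2 scale) than Egr1 (1.84). Egr2 ranged over 1838 to 2876 in cKO, 1999.6 to 2436 in WT, 1449 to 2026 in CD25hi and 1545 to 1884 in CD25lo Tregs, and Egr3 over 1678 to 2208 in cKO, 2091 to 2730.1 in WT, 2147 to 2440.3 in CD25hi and 1741 to 2438 in CD25lo Tregs. WT replicate 4 was not the lowest WT library for either, and neither was called in any of the 3 comparisons. In cKO against WT, Egr2 had 0.00 (adjusted p = 0.993) and Egr3 -0.36 (adjusted p = 0.0988).

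The NR4A genes encode orphan nuclear receptors that T cells induce on antigen receptor engagement. Nr4a1, which encodes NUR77, was at 15213, 15102, 16901, 35267 and 37589.5 in the cKO libraries and 52777, 55643, 49102 and 13916 in the WT libraries. It was at 14254, 10602 and 11369.5 in the CD25hi libraries and 14918 and 10231 in the CD25lo libraries. WT replicates 1 to 3 were above every other library, and WT replicate 4 lay below all cKO libraries. Nr4a1 rose in WT over CD25-sorted Tregs (log2 fold change 1.63, SE 0.35, adjusted p = 0.0286). In cKO against WT it was -0.77 (SE 0.35, adjusted p = 0.273), and it fell without WT replicate 4, to -1.25 (adjusted p = 0.00909).

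Nr4a2, the NURR1 gene, was at 2192, 2180.0, 2529, 3609 and 4084 in the cKO libraries and 4019, 3738, 4574 and 553 in the WT libraries, and at 519, 313 and 432 in the CD25hi libraries and 390.1 and 279 in the CD25lo libraries. It had the largest log2 fold change of the members called in WT over CD25-sorted Tregs (log2 fold change 2.75, SE 0.44, adjusted p = 0.0134), with all 4 WT libraries above the sorted ones, and 0.18 (adjusted p = 0.893) in cKO against WT. Nr4a3, the NOR1 gene, differed in pattern. It was at 2688, 2877, 3127, 3583 and 4649.9 in the cKO libraries and 3659, 3501, 3656 and 3069 in the WT libraries, and at 2747, 3098 and 3489.9 in the CD25hi libraries and 1949.5 and 1857 in the CD25lo libraries. Both CD25lo libraries were below every other library. Nr4a3 fell in CD25lo against CD25hi Tregs (log2 fold change -0.70, SE 0.17, adjusted p = 0.0435), a call kept in 6 of 14 fits that each left out 1 library (adjusted p 0.0104 to 0.261). It was lost with edgeR and without cKO replicate 3 or 4, WT replicate 1 or 3, CD25hi replicate 2 or 3 or either CD25lo library. Nr4a3 also rose in WT over CD25-sorted Tregs (0.51, adjusted p = 0.0489), a call kept in 4 of 14 fits that each left out 1 library. For Nr4a3 the CD25hi libraries overlapped the WT range, and only the CD25lo libraries lay wholly below it.

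**Figure D5:**
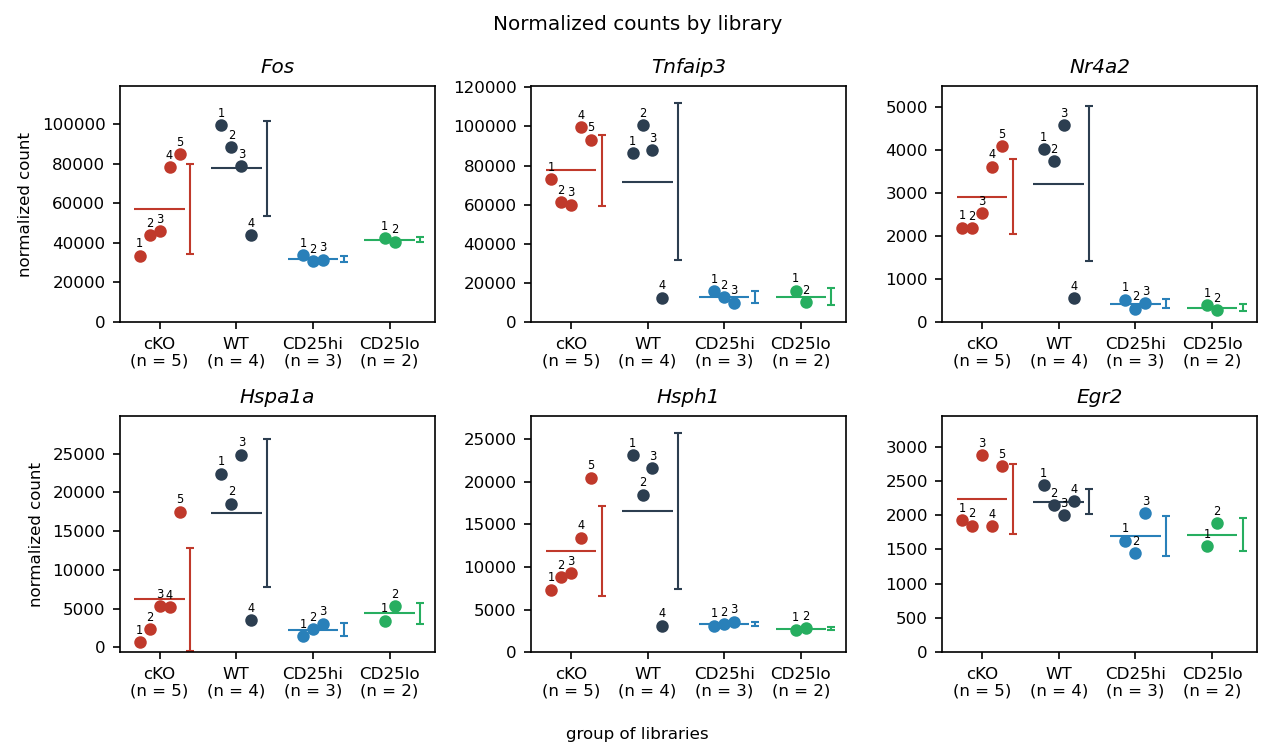
Normalized counts of Fos, Tnfaip3, Nr4a2, Hspa1a, Hsph1 and Egr2 in each library (points numbered by replicate) in 4 groups, with the mean as a line and the SD as a bar. WT replicate 4 lies under the other WT libraries in all panels but that of Egr2.

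The immediate early regulators were IER2, IER3 and IER5, small early response proteins, and BTG2, an antiproliferative partner of the CCR4-NOT deadenylase. Ier3 had the fewest reads of the 39 genes. It was at 34.1, 40.9, 66.2, 97.0 and 95.2 in the cKO libraries and 20.8, 0, 39.6 and 0 in the WT libraries, and at 7.50, 0 and 0 in the CD25hi libraries and 7.30 and 0 in the CD25lo libraries. All 5 cKO libraries lay above 30 normalized counts while the CD25-sorted libraries lay under 10, and its cKO against WT comparison was the 1 with an unadjusted p under 0.05 in the higher direction, with an adjusted p of 0.138. At so few reads no fold is given. Ier2 ranged over 5789 to 10523 in cKO, 6313 to 12476 in WT, 4454 to 5917 in CD25hi and 5796 to 6561 in CD25lo Tregs, Ier5 over 6487 to 9093 in cKO, 6490.0 to 9012 in WT, 5368 to 5844 in CD25hi and 5968 to 6754 in CD25lo Tregs, and Btg2 over 13481 to 24349 in cKO, 9647 to 26182 in WT, 9269 to 11403 in CD25hi and 10467 to 10918 in CD25lo Tregs. Ier2 and Ier5 rose in WT over CD25-sorted Tregs, by 0.84 (adjusted p = 0.0399) and 0.46 (adjusted p = 0.0367), and Btg2 had 0.92 (adjusted p = 0.0588). In cKO against WT the 3 were at -0.45 (adjusted p = 0.261), -0.13 (adjusted p = 0.591) and -0.19 (adjusted p = 0.765), and Ier2 fell without WT replicate 4, to -0.68 (adjusted p = 0.0252).

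The dual specificity phosphatases switch off MAP kinases. Dusp2 (chromosome 2, 127336159 to 127338376, plus strand, GRCm38), the nuclear phosphatase also called PAC1, was 1 of the 2 members called in cKO against WT. It was at 3039, 3150.0, 3123, 4538 and 4552 in the cKO libraries and 6059, 6123, 6210.2 and 3963 in the WT libraries. It was at 4290.3, 5354 and 3792 in the CD25hi libraries and 5011 and 3402 in the CD25lo libraries. WT replicate 4 lay inside the cKO range and the other WT libraries above it. Dusp2 fell in cKO against WT, by a log2 fold change of -0.60 (SE 0.16, adjusted p = 0.0450), and without WT replicate 4 it was at -0.76 (adjusted p = 0.00843). The call was kept in 7 of 14 fits that left out 1 library each, with an adjusted p of 0.00843 to 0.121, and lost without cKO replicate 1, 2 or 3, WT replicate 1, 2 or 3 or CD25hi replicate 1. In WT against CD25-sorted Tregs Dusp2 had 0.36 (adjusted p = 0.283).

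Dusp1, an inducible phosphatase of p38 and JNK, ranged over 39005 to 84015 in cKO, 23804 to 87769.6 in WT, 17521 to 23509.9 in CD25hi and 17752 to 20939 in CD25lo Tregs. Dusp5, a nuclear phosphatase of ERK, was at 5881, 4275, 4334, 10254 and 8207 in the cKO libraries and 8303, 8821, 9530.3 and 2196 in the WT libraries. It was at 2179, 1571 and 2094 in the CD25hi libraries and 1984 and 1901 in the CD25lo libraries. WT replicate 4 lay just above the highest of the CD25-sorted libraries and below all cKO libraries. Both rose in WT over CD25-sorted Tregs, Dusp1 by 1.60 (adjusted p = 0.0205) and Dusp5 by 1.69 (SE 0.34, adjusted p = 0.0240), and in cKO against WT they had -0.12 (adjusted p = 0.899) and -0.01 (adjusted p = 0.991).

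The feedback and stress regulators damp NF-kappaB (Nfkbia, the IkappaB alpha gene, and Tnfaip3, the A20 gene), respond to stress and DNA damage (Gadd45b), restore translation after eIF2alpha phosphorylation (Ppp1r15a, the GADD34 gene) or destabilize AU-rich mRNAs (Zfp36, the tristetraprolin gene). Tnfaip3 was at 73225, 61305, 60099, 99684 and 93218 in the cKO libraries and 86326, 100586, 87846 and 12457 in the WT libraries. It was at 15832, 12832 and 9971 in the CD25hi libraries and 16009 and 10084 in the CD25lo libraries. Every cKO library was above WT replicate 4 and all CD25-sorted libraries. Tnfaip3 rose in WT over CD25-sorted Tregs (log2 fold change 2.13, SE 0.43, adjusted p = 0.0240), with 0.45 (adjusted p = 0.664) in cKO against WT. Gadd45b was at 3188, 2452, 4567, 6291 and 8360.4 in the cKO libraries and 5777, 6402, 5142 and 680.3 in the WT libraries, and at 1111, 922 and 872 in the CD25hi libraries and 1097 and 1011 in the CD25lo libraries. Its lowest library of all 14 was WT replicate 4, and its comparison with CD25-sorted Tregs was not called (1.74, adjusted p = 0.0769).

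Nfkbia ranged over 8758 to 17909 in cKO, 7042 to 19574 in WT, 7591 to 8776 in CD25hi and 7456 to 7537 in CD25lo Tregs, Ppp1r15a over 23484 to 43411 in cKO, 12669.7 to 44271 in WT, 9983 to 13087 in CD25hi and 11552 to 15020.1 in CD25lo Tregs, and Zfp36 over 21658 to 37853 in cKO, 22241 to 41840.0 in WT, 15422 to 20678 in CD25hi and 19819.9 to 23944 in CD25lo Tregs. Ppp1r15a and Zfp36 rose in WT over CD25-sorted Tregs, by 1.35 (adjusted p = 0.0255) and 0.82 (adjusted p = 0.0359), and Nfkbia had 0.89 (adjusted p = 0.0673). None of the 5 was called in cKO against WT, where their log2 fold changes ran from -0.33 to 0.45. WT replicate 4 was the lowest WT library for all 5.

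Rgs1 and Rgs2 encode regulators of G protein signaling, and Cd69 an early activation antigen that holds T cells in tissue by pulling down the S1P receptor. Rgs2 was at 8581, 6224, 7525, 13496 and 14409 in the cKO libraries and 12566, 12591, 12177 and 2380.2 in the WT libraries. It was at 2384, 1971 and 1780.2 in the CD25hi libraries and 2874 and 2633 in the CD25lo libraries. WT replicate 4 sat with the CD25-sorted libraries and below each cKO library. Rgs2 rose in WT over CD25-sorted Tregs (log2 fold change 1.80, SE 0.37, adjusted p = 0.0255), as did Cd69 (1.31, adjusted p = 0.0295), which ranged over 9244 to 16029 in cKO, 5090.3 to 17316 in WT, 3883 to 6072 in CD25hi and 5130.1 to 6311 in CD25lo Tregs. Rgs1 ranged over 13649.9 to 18736 in cKO, 8800.3 to 18124 in WT, 11473 to 13495 in CD25hi and 7246 to 8229.7 in CD25lo Tregs, with both CD25lo libraries below the CD25hi ones. Its log2 fold change in CD25lo against CD25hi Tregs was -0.72 (SE 0.21, adjusted p = 0.10), and the same comparison without WT replicate 4, which enters it only through the shared spread, gave -0.72 (adjusted p = 0.00210), where 1.41% of all genes were called lower.

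The heat shock genes encode the inducible HSP70 pair (Hspa1a and Hspa1b), the constitutive HSC70 (Hspa8), HSP90 alpha (Hsp90aa1), the HSP110 exchange factor (Hsph1), the HSP40 co-chaperones (Dnaja1 and Dnajb1) and the mitochondrial HSP60 and HSP10 (Hspd1 and Hspe1). Hspa1a was at 633, 2320.4, 5343, 5188 and 17505 in the cKO libraries and 22422, 18559, 24881 and 3476 in the WT libraries. It was at 1432, 2337 and 3078 in the CD25hi libraries and 3452 and 5357 in the CD25lo libraries. WT replicates 1 to 3 and cKO replicate 5 stood highest and apart from every other library, and cKO replicate 1 was the lowest of all 14. The log2 fold change in cKO against WT was -1.89 (SE 0.68, adjusted p = 0.151), and without WT replicate 4 Hspa1a fell, at -2.55 (adjusted p = 0.0280).

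Hspa1b ranged over 1582 to 25780.1 in cKO, 5879.6 to 37563 in WT, 3405 to 5736 in CD25hi and 7265 to 10557 in CD25lo Tregs. It had -1.65 (SE 0.59, adjusted p = 0.149) in cKO against WT, and it fell without WT replicate 4, at -2.28 (adjusted p = 0.0207). In WT against CD25-sorted Tregs neither Hspa1a (2.17, adjusted p = 0.119) nor Hspa1b (1.77, adjusted p = 0.141) was called. The 2 genes share most of their sequence, as 66.3% of the 50-base stretches of Hspa1a mRNA and 62.3% of those of Hspa1b also occur in another transcript, mostly the partner, so the split of reads between them is uncertain, and their promoters, printed earlier, are near-identical as well.

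Hsph1 was at 7329, 8823, 9307, 13465 and 20513 in the cKO libraries and 23136, 18506, 21625 and 3096 in the WT libraries. It was at 3092, 3292 and 3576 in the CD25hi libraries and 2632 and 2841 in the CD25lo libraries. All cKO libraries exceeded WT replicate 4 and the CD25-sorted libraries, and Hsph1 rose in WT over CD25-sorted Tregs (log2 fold change 2.11, SE 0.43, adjusted p = 0.0240). Dnaja1 was at 7883, 9228, 9098, 11998 and 15636 in the cKO libraries and 17089, 16101, 16711 and 4208 in the WT libraries, and at 3719, 3581 and 3472 in the CD25hi libraries and 3891 and 4141 in the CD25lo libraries. Its 4 WT libraries lay above all CD25-sorted ones, and it rose there too (log2 fold change 1.64, SE 0.30, adjusted p = 0.0205). Without WT replicate 4 both fell in cKO against WT, Hsph1 at -0.92 (adjusted p = 0.0207) and Dnaja1 at -0.67 (adjusted p = 0.0142).

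Hspe1 (chromosome 1, 55088132 to 55091307, plus strand, GRCm38) was the other member called in cKO against WT. It was at 1620.5, 1844, 2062, 1773 and 2581 in the cKO libraries and 3011, 2773, 3294 and 2384 in the WT libraries. It was at 1912, 2158 and 2782 in the CD25hi libraries and 1678 and 1767 in the CD25lo libraries. All 4 WT libraries were above 4 of the 5 cKO libraries, with cKO replicate 5 inside the WT range. Hspe1 fell in cKO against WT, at -0.54 (SE 0.13, adjusted p = 0.0262), and at -0.63 (adjusted p = 0.0137) without WT replicate 4, a call kept in 9 of 14 fits that left out 1 library each (adjusted p 0.00785 to 0.0906) and lost without cKO replicate 1, 2 or 4 or WT replicate 1 or 3. Hspe1 and Hspd1 lie head to head and their 5′ ends overlap at chr1:55088132-55088243, and 44.8% of the 50-base stretches of each also occur in another gene, so their values are uncertain. Whether the counting used strand is not given in the sources used here.

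The other heat shock genes were Hspd1, which ranged over 2826 to 4472 in cKO, 2121 to 4663 in WT, 2397 to 2733 in CD25hi and 1822 to 2101 in CD25lo Tregs, Hspa8 over 13423 to 23337 in cKO, 15605 to 25236 in WT, 12991 to 14739.6 in CD25hi and 13202 to 14149.8 in CD25lo Tregs, Hsp90aa1 over 3008 to 6554 in cKO, 2881 to 7257 in WT, 2728 to 2844 in CD25hi and 2246 to 2488 in CD25lo Tregs, and Dnajb1 over 4611 to 12261 in cKO, 5719 to 14416 in WT, 5074 to 5749.5 in CD25hi and 6250.3 to 6364 in CD25lo Tregs. Hsp90aa1 and Hspa8 rose in WT over CD25-sorted Tregs, by 1.09 (adjusted p = 0.0285) and 0.68 (adjusted p = 0.0295), and Dnajb1 and Hspd1 had 0.91 (adjusted p = 0.0673) and 0.67 (adjusted p = 0.0647). Stretches shared with other genes made up 74.8% of Hspa8, 58.5% of Hsp90aa1, 28.8% of Dnaja1, 48.3% of Jund and 20.5% of Dusp5, so these values are uncertain as well.

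The members were short genes. Their median span was 5.16 kb, against 22.7 kb for the tested genes with a coding transcript, and their median exon count was 4, against 9. Of the 39, 7 (17.9%) had 1 exon, against 3.29%. The AU-rich pentamer ATTTA, a mark of mRNAs with fast turnover, occurred at a median of 2.25 per kb of 3′ UTR, against 1.15, and the nonamer TTATTTATT in 8 members (20.5%), against 7.23%. A match to the seed of miR-15/16 (TGCTGCT or GCTGCTA) was present in the 3′ UTR of 7 members (17.9%), against 24.9% of all such genes. These 7 were Fosl2, Egr3, Btg2, Tnfaip3, Rgs1, Hspa1a and Hsph1, and none of them was called in cKO against WT with all libraries, while Hspa1a and Hsph1 were called lower without WT replicate 4.

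The wider early response was read from 43 further genes, of which 42 were tested. All 42 had a positive log2 fold change in WT over CD25-sorted Tregs (median 0.94, beside 0.0132 over all genes), and 21 were called higher and 0 lower, where 1.2% of all genes were called higher and 0.308% lower. None of the 21 was called without WT replicate 1, 2 or 3 or CD25lo replicate 2, with only the groups compared or with sex as a term. Over all genes, at most 5 were called higher in any of these fits. Without WT replicate 4 the count was 32 (4.16% of all genes), and it was 10 without CD25hi replicate 2, 14 without CD25hi replicate 3 and 9 without CD25lo replicate 1. Over all genes, 85, 122 and 148 were called higher without CD25hi replicate 2, CD25hi replicate 3 and CD25lo replicate 1. In cKO against WT, 2 of the 42 were called lower and 0 higher, beside 1.48% and 2.04% of all genes, and 8 were called lower without WT replicate 4 (1.71%). The 2 were Mcl1, a survival factor of the BCL2 family (log2 fold change -0.39, adjusted p = 0.0119), and Klf2, a factor of resting T cells that maintains recirculation (-0.67, adjusted p = 0.0256), and Irf1 followed at -0.28 (adjusted p = 0.0746). The Klf2 call was lost without any 1 of cKO replicates 1 and 3 and WT replicates 1 to 3. It was also lost without a filter on low values, with only the groups compared and with sex as a term. In CD25lo against CD25hi Tregs limma called 0 of the 42, with edgeR at 0 and DESeq2 at 1, and without WT replicate 4 it called 1 higher and 2 lower.

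For the genes that act upstream, the counts called lay near the shares of all genes and mark no trait of this list. Of 18 signaling factors upstream (SRF and its partners, CREB and ATF, MAP kinases and heat shock factors), limma called 0 in WT against CD25-sorted Tregs (median -0.01), as did edgeR and DESeq2. Over all genes limma called 1.2% higher and 0.308% lower there. Of the 18, 2 had an unadjusted p under 0.05, beside 9.25% of all genes higher and 6.72% lower. In cKO against WT limma called 1 of the 18, beside 2.04% of all genes higher. This was Elk3, an ETS partner of SRF, which rose (0.34, adjusted p = 0.00887).

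Of 31 further chaperones, 3 were called higher in WT than in CD25-sorted Tregs, where 1.2% of all genes were (median 0.10, beside 0.0132). They were Dnajb4, Bag3 and Hsp90ab1. Each of the 3 calls was lost without WT replicate 1, 2 or 3, CD25hi replicate 3 or either CD25lo library, and all but that of Dnajb4 without CD25hi replicate 1 or 2. That of Hsp90ab1 was also lost without cKO replicate 3. Without WT replicate 4 the count was 6 higher (4.16% of all genes) and 1 lower (1.9%). A single chaperone was called higher in cKO than in WT (2.04% of all genes), Tcp1, a subunit of the TRiC chaperonin (0.43, adjusted p = 0.00312), and 0 lower, or 3 lower without WT replicate 4 (1.71%).

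Of 16 genes of endoplasmic reticulum stress, 2 were called higher in WT than in CD25-sorted Tregs, beside 1.2% of all genes. Dnajb9 (1.87, adjusted p = 0.0134) was not called without WT replicate 1 or 2 or CD25lo replicate 2, and Atf4 (0.89, adjusted p = 0.0483) was called in 2 of 14 fits that left out 1 library each. Without WT replicate 4 the count was 6 (4.16% of all genes). Pdia4 was lower in CD25lo than in CD25hi Tregs (-0.47, adjusted p = 0.0349), where 1.01% of all genes were called lower, a call lost without cKO replicate 1, any CD25hi library or either CD25lo library. Dnajb4, Bag3, Hsp90ab1, Dnajb9, Atf4 and Pdia4 are named because they were called, after their values were seen.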

How the data were processed

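RNA-seq libraries of Tregs (14, grouped by their labels) were used. Single-end reads of 50 bases were aligned by the authors with STAR 2.7.2b (GRCm38). The signal they deposited for each gene is its count of reads scaled by the size factor of the library from DESeq2 1.24.0, here called the normalized count. The authors also deposited variance-stabilized log2 values, GC content as a percent, and columns of their comparisons (log2 fold changes, ratios or folds, p-values and FDR), none of which were used. Deposited columns not mapped to a sample numbered 0.

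A mean for each of 4 groups was fitted to log2(normalized count + 1) of all 14 libraries with limma 3.58.1 (R 4.3.3, intensity trend), over 16241 genes that reached 10 normalized counts in 2 or more libraries, and adjusted p-values are Benjamini-Hochberg over all of them, with calls under 0.05. Fold changes on this scale understate those of genes with few reads. The plan named edgeR for whole counts. As the unit was normalized counts, limma was used, and whole reads (recovered for 100% of values within 0.055) served edgeR 4.0.16 and DESeq2 1.42.0 as alternatives, beside pseudocounts of 0.5 and 5, other filters, the groups compared alone, a replicate block, sex, library weights and each library left out. WT against CD25-sorted contrasts WT with the mean of the CD25hi and CD25lo means. The scripts were tested on simulated data with known changes. Of 2-fold changes, 50.7% were recovered in cKO against WT and 32.8% in CD25lo against CD25hi, so a gene not called may still differ. WT against CD25-sorted Tregs was not simulated.

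The members, lists and tests were chosen with earlier results of these data known. Values in every library are given for members called in a comparison (up to 10, largest fold first) and for the widest-ranging member of each role, and up to 3 genes per further list are named by adjusted p in cKO against WT. Gene structure is from GENCODE M21 and promoters from RefSeq. The counting strand is not given in the sources used here.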

Additional observations from a re-analysis of the deposited data

Results flagged for a closer look

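WT replicate 4 stood apart from the other WT libraries for 30 of the 39 members. Its gap to the nearest WT library, as a share of the whole range of the 4 WT libraries on the log2 scale, was above 0.829, Dixon's critical value for 4 samples. Across all genes tested, some WT library passed this value for 13.5%, and chance alone does so for about 1 in 20 groups. Among the AP-1 and ATF factors the shares were Fosb 0.833, Fosl2 0.974, Jun 0.871, Junb 0.972, Jund 0.939 and Atf3 0.959. Among the EGR and KLF factors the shares were Egr1 0.888 and Klf6 0.949. Among the NR4A receptors the shares were Nr4a1 0.910 and Nr4a2 0.904. Among the immediate early regulators the shares were Ier2 0.898, Ier5 0.950 and Btg2 0.937. Among the dual specificity phosphatases the shares were Dusp1 0.879, Dusp2 0.945 and Dusp5 0.906. Among the feedback and stress regulators the shares were Nfkbia 0.865, Tnfaip3 0.927, Gadd45b 0.902, Ppp1r15a 0.906 and Zfp36 0.959. In the RGS and CD69 group the shares were Rgs1 0.869, Rgs2 0.980 and Cd69 0.964. Among the heat shock genes the shares were Hspa1a 0.851, Hspa1b 0.886, Hspa8 0.832, Hsph1 0.889, Dnaja1 0.957 and Dnajb1 0.898. Every one of these gaps lay on the low side. In the cKO group, cKO replicate 5 stood apart for Hspd1, the mitochondrial HSP60 gene, on the high side (0.715, above the critical value of 0.710 for 5 samples), where 7.3% of all genes had a cKO library past that value. The age, sort and date of WT replicate 4 are not in the labels, and no cause of these gaps was tested.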

How the results depend on the processing

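No log2 fold change of a gene called as reported changed sign under the alternatives run, while 9 members that were not called in cKO against WT changed sign without WT replicate 4. Single genes followed across alternatives were counted once per gene and fit. For cKO against WT, a call was lost 30 times and gained 18 times, and the outcome stayed as reported 239 times. For CD25lo against CD25hi, a call was lost 13 times and gained 1 time, and the outcome stayed as reported 34 times. For WT against CD25-sorted Tregs, a call was lost 224 times and gained 17 times, and the outcome stayed as reported 431 times. Mcl1, Elk3 and Tcp1 lost their calls with sex as a term and in no other fit. Klf2 lost its call in cKO against WT with sex as a term, without a filter, with only the groups compared and with the replicate block, beside fits that left out 1 library. The causes of these changes were not tested. For members lower in cKO against WT (2 as reported), the count was 11 at an unadjusted p, 0 without a filter on low values, 1 with only the groups compared, 4 with the replicate block, 0 with sex as a term, 11 with library weights and 0 to 13 with 1 library left out. For members higher in that comparison (0 as reported) it was 1 at an unadjusted p. For members lower in CD25lo against CD25hi Tregs (1 as reported) it was 3 at an unadjusted p, 0 with edgeR, without a filter, with only the groups compared, with sex as a term and with library weights, and 0 to 2 with 1 library left out. For members higher in WT against CD25-sorted Tregs (24 as reported) it was 37 at an unadjusted p, 1 without a filter, 0 with only the groups compared and with sex as a term, and 0 to 36 with 1 library left out, while edgeR called 33, DESeq2 35, pseudocounts of 0.5 and 5 called 23 and 27, a filter of 100 called 26, the replicate block 20 and library weights 32. Calls over all genes moved as well. In WT against CD25-sorted Tregs, 195 genes were called higher as reported, 20 without a filter, 0 with only the groups compared and 5 with sex as a term. In cKO against WT, 240 genes were called lower as reported, 179 without a filter, 9 with sex as a term and 539 with library weights. The filter bears on the adjustment, as 23665 genes are tested without it and 16241 with it. Deviations of same-numbered libraries correlated at -0.11, -0.10, -0.11 and -0.32 between cKO and WT and at most at 0.07 between other groups. Libraries with different numbers were not correlated for reference, so these values cannot tell whether the numbers pair the samples. The block result is given only here. Depth limits Ier3, whose values lie under 100 normalized counts.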
